A study of Mus musculus with 25 samples.

Results

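Monocyte-derived macrophages (MDM) were set against microglia, both sorted from transplanted mouse tumours labelled type 2, from a study of 2 lineage-based models in the mouse of glioblastoma, the most malignant glioma. The libraries were chosen by their labels alone, which gave 5 of the 21 libraries in the deposited table. They were 2 libraries of MDM, numbered 1 and 3 in the table though the title of the second counts it as 2, and 3 libraries of microglia, numbered 1, 2 and 3. The other libraries came from type 1 transplanted tumours (4 MDM and 3 microglia) and from tumours that arose spontaneously (MDM, 2 of type 1 and 1 of type 2; microglia, 3 of each type). Microglia of normal brain, 4 samples in the labels, were not analysed here. Every library compared here therefore came from a tumour, and there was no tumour-free reference. The labels name the tumour type, the model and the cell type, and give no strain, genotype, age, host, transplanted cell or sort gate. Nothing in them says that each library is a separate mouse, so a p-value reflects the spread among libraries, some of which may be technical. Unless stated otherwise, that spread was pooled within the 8 tumour groups of all 21 libraries, and not taken from the 5 compared libraries alone. A group with only 1 library, such as MDM of type 2 spontaneous tumours, added nothing to it. Transcripts of the Y chromosome and of Xist placed MDM library 1 and microglia library 1 in male mice and the other 3 libraries in female mice.

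Macrophages of a brain tumour have 2 origins. Microglia settle in the brain before birth, renew themselves there, and carry genes that depend on the brain's own signals, among them purinergic receptors that sense ATP and ADP from damaged cells. MDM descend from bone marrow monocytes that follow chemokines out of the blood and turn into macrophages inside the tumour. Each population can take up debris, present antigen and secrete growth factors, and how they share that work in a tumour is the question a comparison of them addresses.

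Levels are normalised read counts (reads of a gene divided by the size factor of its library), and a library of these 5 held 26530069 to 46120261 reads and 16883 to 18268 detected genes. Fold changes are MDM over microglia on the log2(normalised count + 1) scale, ± the standard error. Adjusted p-values were obtained with limma-trend and the Benjamini-Hochberg method across all 17216 tested genes, and a gene was called at an adjusted p under 0.05. In that fit 3094 genes were called, 18.0% of those tested, with 1639 (9.52%) higher and 1455 (8.45%) lower in MDM, and the median gene differed by 0.013 on the log2 scale. MDM were higher for 28 of 32 genes of recruited monocytes and macrophages and for all 17 genes of NK cells and cytotoxic granules. They were lower for 26 of 27 genes of homeostatic microglia and for 17 of 26 genes of lysosomes and phagocytosis. The shares over all tested genes, 9.52% higher and 8.45% lower, are the background for every list count with both MDM libraries below. Because only 2 MDM libraries exist, each was also compared alone with the 3 microglia libraries, assuming that a lone library varies like the other groups. MDM library 1 alone gave 2842 called genes (16.5%; 8.33% higher and 8.18% lower; median 0.059). MDM library 3 alone gave 1054 (6.12%; 3.08% higher and 3.04% lower; median 0). With libraries scaled to the same total instead, 62.9% of the calls were higher in MDM, against 53.0% here. With the spread taken from the 5 compared libraries alone, 1677 genes were called, and 1350 of them were shared with the 3094.

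The 2 MDM libraries stood apart from each other. Of the tested genes, 39.9% were at least 2-fold apart between them, while pairs of microglia libraries had 18.8%, 20.3% and 23.6% of genes that far apart. MDM library 1 carried more transcripts of natural killer (NK), B and plasma cells: the 17 genes of an NK and cytotoxic granule list took 1.09% of its reads and 0.107% of those of library 3, against at most 0.00118% in a microglia library. Jchain, the joining chain of secreted antibody and a plasma cell gene chosen here after its values were seen, took 5.0% of the reads of library 1 and 0.0872% of those of library 3, against 0.00645%, 0.0013% and 0.00145% in microglia. MDM library 3 carried more microglial transcripts: 27 homeostatic microglia genes summed to 215172 normalised counts in library 1 and 514838 in library 3, and to 1793810, 2256500 and 1406686 in the microglia libraries. The part of these transcripts in the results was not tested, and values of each MDM library therefore stand beside them. In sorted bulk samples fewer cells of a type and less RNA per cell cannot be told apart.

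The 4 lineage markers separated the groups in the direction of the labels. Itga4, also called CD49d, an integrin chain of cells that enter from the blood (chromosome 2, 79255426 to 79333114 of GRCm38), had 4396 and 4651 normalised counts in MDM and 75.4, 158 and 146 in microglia. Both MDM libraries lay far above every microglia library, by 5.22 ± 0.77 on the log2 scale (adjusted p = 0.00028). Ccr2, the chemokine receptor that brings inflammatory monocytes into tissue (chromosome 9, 124101918 to 124109140), had 19272 and 56757 in MDM and 125, 1373 and 779 in microglia. It was 64.4-fold higher (6.01 ± 1.18, adjusted p = 0.0022), and library 3 was the higher of the MDM pair. Tmem119, a surface protein of resident microglia (chromosome 5, 113793729 to 113800396), had 3706 and 17199 in MDM and 150263, 245104 and 108973 in microglia. No values overlapped, and Tmem119 was lower in each MDM library alone (log2 fold change -5.42 for library 1, adjusted p = 1.2e-05, and -3.21 for library 3, adjusted p = 0.0047). P2ry12, the ADP receptor of ramified microglia (chromosome 3, 59216271 to 59262985), had 685 and 23408 in MDM and 84902, 191785 and 74800 in microglia. It was lower with both MDM libraries (-4.74 ± 1.01, adjusted p = 0.0039), but library 3 alone did not pass the test (-2.19, adjusted p = 0.14). With the spread estimated from these 5 libraries alone, hereafter the 5-library fit, Itga4 and Tmem119 kept their calls and Ccr2 and P2ry12 lost theirs (adjusted p = 0.053 and 0.13). They were among 55 named genes that lost the call in that fit, and its adjusted p is given beside those described below.

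Further genes of macrophage identity followed the same split. Ly6c2, the surface antigen of classical monocytes, had 20947 and 61691 in MDM and 36.9, 463 and 305 in microglia, a 205-fold difference (adjusted p = 0.002). Ptprc, which encodes the leukocyte antigen CD45, was 2.21-fold higher in MDM (adjusted p = 0.023; 5-library fit, 0.055), although neither MDM library passed alone (adjusted p = 0.15 and 0.059) and the call was lost without microglia library 1 or 3 (0.066 and 0.051). Sall1, a repressor that holds microglial identity, had 189.5 and 2307 in MDM and 12041, 12564 and 7959 in microglia. Library 3 held far more Sall1 transcripts than library 1, and alone it missed the threshold (-2.21, adjusted p = 0.16; both libraries in the 5-library fit, 0.094). Cx3cr1, the fractalkine receptor, was 7.21-fold lower in MDM (5666 and 11615 against 56623, 73880 and 47873, adjusted p = 0.00017). Csf1r, the receptor for the macrophage growth factors CSF1 and IL34, was 8.01-fold lower (26311 and 51474 against 311255, 329517 and 250199, adjusted p = 0.00086; 5-library fit, 0.065). Itgam, the CD11b integrin of myeloid cells, was 4.65-fold lower (adjusted p = 0.01; library 3 alone, 0.14).

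**Figure D1:**
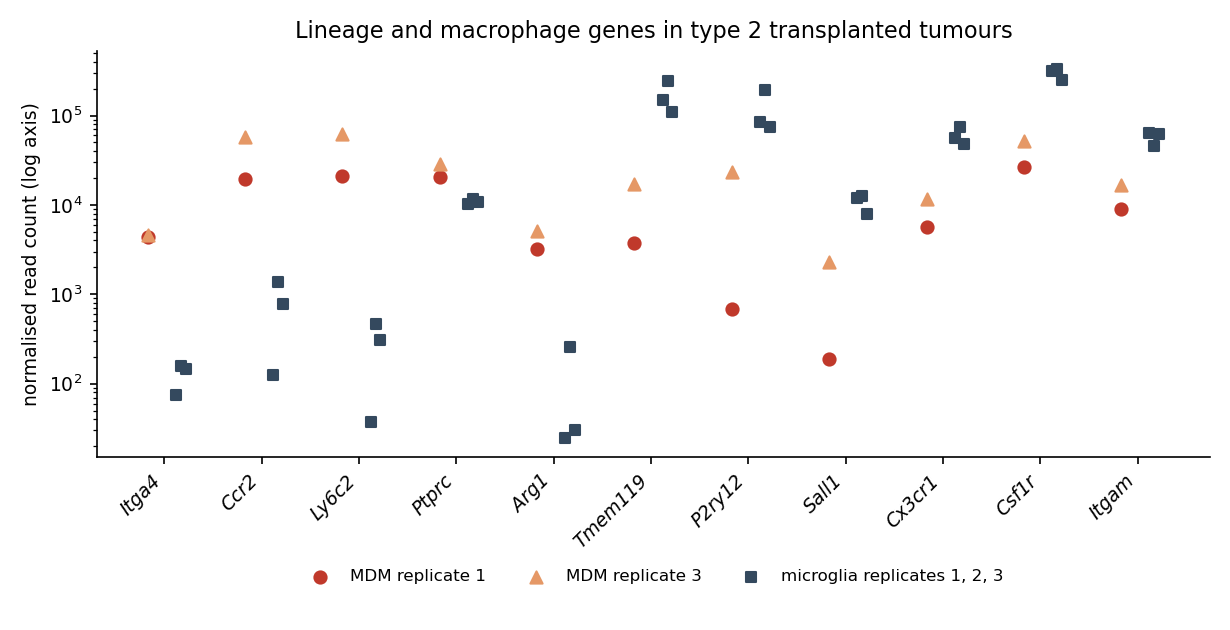
Normalised read counts (log axis) of 11 lineage and macrophage genes, with MDM libraries 1 and 3 left of the 3 microglia libraries for each gene. Itga4, Ccr2, Ly6c2, Ptprc and Arg1 lie higher in both MDM libraries and Tmem119, P2ry12, Sall1, Cx3cr1, Csf1r and Itgam lower; for P2ry12 the MDM libraries are far apart, at 685 and 23408.

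Genes of homeostatic microglia, the set that marks undisturbed resident cells, were lower in MDM for 26 of 27 tested members and higher for 0, with a median log2 fold change of -3.93. Slco2b1, an organic anion transporter, differed by -5.04 ± 0.64 (adjusted p = 0.0001), and Lag3, an inhibitory receptor better known on T cells, had 170.4 and 621 normalised counts in MDM and 11625, 8870 and 2471 in microglia (-4.28 ± 0.59, adjusted p = 0.00017; 5-library fit, 0.061). MDM library 1 alone gave 25 lower members and a median of -5.42. MDM library 3 alone gave 10 and a median of -2.19, so the size of the fall depended on the library. Of the 27 genes, 26 were lower in MDM library 1 than in MDM library 3.

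The list of recruited monocytes and macrophages went the other way, with 28 of 32 members higher in MDM, 0 lower and a median of 5.58. Here the MDM libraries gave similar medians alone, 5.29 in library 1 (17 higher) and 5.73 in library 3 (20 higher). Crip1, a small LIM-domain protein, had 12249 and 13397 in MDM and 109.8, 236 and 226 in microglia, a log2 fold change of 6.14 ± 0.48 (adjusted p = 3e-06). Lsp1, an actin-binding protein of leukocytes, had 38376 and 26643 in MDM and 1449, 2549 and 1645 in microglia (4.13 ± 0.40, adjusted p = 1.2e-05). For both genes the MDM libraries lay close to each other and far above microglia. S100a11, a calcium-binding protein, was higher by 6.57 ± 0.77 (adjusted p = 5.4e-05), and Anxa2, which binds membranes and the plasminogen activator, by 4.98 ± 0.62 (adjusted p = 8.5e-05).

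**Figure D2:**
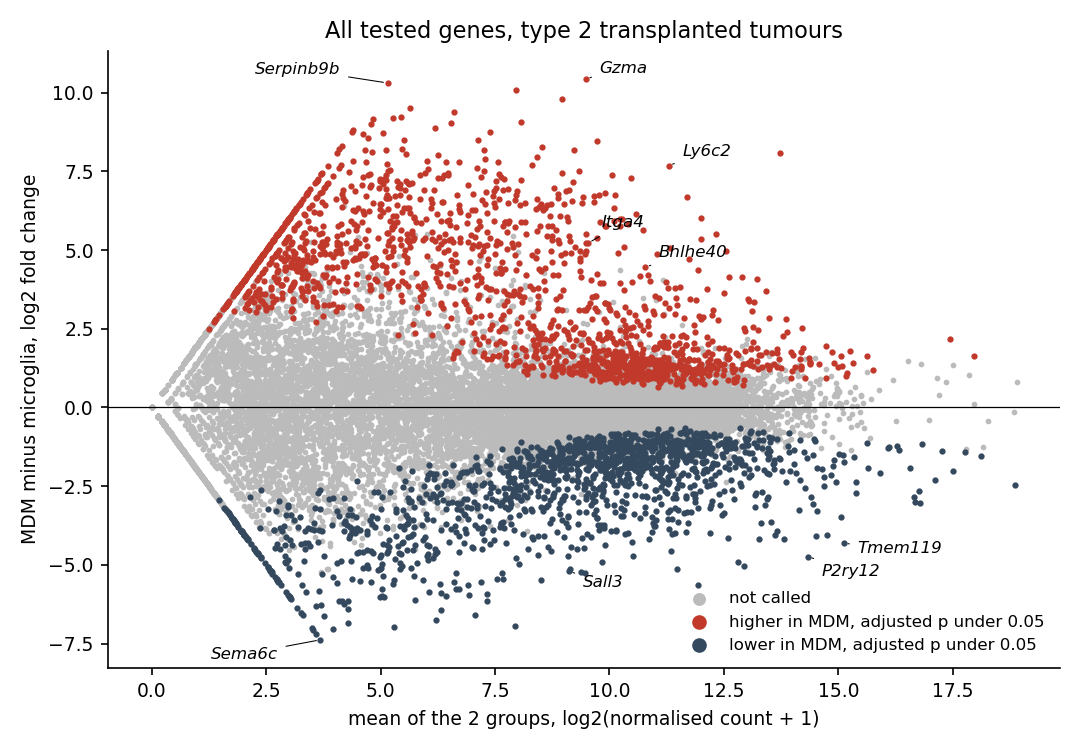
Log2 fold change of MDM over microglia against the mean of both groups on the log2(normalised count + 1) scale, for the 17216 tested genes. The 1639 genes higher and 1455 genes lower in MDM at an adjusted p under 0.05 are coloured, and called genes spread over the whole range of levels.

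Transcription factors of the macrophage lineage divided, with 10 of 30 higher and 7 lower (library 1 alone, 9 and 8; library 3 alone, 8 and 2). Bhlhe40, a repressor that supports proliferation and cytokine production in macrophages, had 10796 and 6334 in MDM and 366, 424 and 337 in microglia. The groups were far apart in every library (4.46 ± 0.45, adjusted p = 1.6e-05). Id2 and Id3, inhibitors of basic helix-loop-helix factors, were higher by 3.36 ± 0.45 (adjusted p = 0.00013) and 5.30 ± 0.74 (adjusted p = 0.00018). Id2 is also a factor of NK cells, and it stood at 51298 and 16650 in the MDM libraries, higher in the library with more NK transcripts. Sall3, a relative of Sall1, had 17.9 and 444 in MDM and 3487, 4717 and 2324 in microglia, and was lower in each MDM library alone (-7.48, adjusted p = 6.7e-07, and -2.92, adjusted p = 0.0064; both in the 5-library fit, 0.091).

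TGF-beta signalling, which maintains microglial gene expression, had 6 of 21 genes lower in MDM and 2 higher (library 1 alone, 6 and 2; library 3 alone, 2 and 2). Tgfbr2, the ligand-binding receptor, had 4109 and 3977 in MDM and 26441, 28226 and 23389 in microglia, with nearly equal values in the MDM pair (-2.68 ± 0.45, adjusted p = 0.00066). Its partner Tgfbr1 differed by -2.77 ± 0.60 (adjusted p = 0.0042; library 3 alone, 0.082). The feedback inhibitor Smad7 differed by -2.27 ± 0.51 (adjusted p = 0.0055; library 3 alone, 0.059). Bambi, a decoy receptor that lacks the kinase, was higher in MDM by 2.52 ± 0.50 (adjusted p = 0.0023).

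Among chemokine receptors 5 of 18 were higher and 1 lower, the lower one being Cx3cr1 (library 1 alone, 6 and 1; library 3 alone, 3 and 1). Cxcr4, the receptor for the retention signal CXCL12, had 904 and 1562 in MDM and 41.8, 25.1 and 27.7 in microglia, and both MDM libraries stood well above all microglia libraries (5.23 ± 0.54, adjusted p = 1.7e-05). Ccr7, which guides dendritic and T cells to lymph nodes, had 4398 and 731 in MDM and 9.02, 54.8 and 7.92 in microglia (6.71 ± 1.46, adjusted p = 0.0043). Library 3 alone did not pass for Ccr7 (adjusted p = 0.09). Chemokine ligands had 6 of 22 members higher and 0 lower, while library 1 alone gave 3 higher and 2 lower and library 3 alone 2 and 0. Ccl17, a ligand of CCR4, had 903 and 279 in MDM and 0, 9.90 and 0.792 in microglia (7.54 ± 1.44, adjusted p = 0.0018). Cxcl14 was higher by 2.35 ± 0.56 (adjusted p = 0.0074; library 1 alone, 0.06) and Ccl5, which NK and T cells also make, by 3.44 ± 0.95 (adjusted p = 0.018; 5-library fit, 0.069; library 3 alone, 0.19; without microglia library 2, 0.072).

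Leukocyte integrins had 6 of 19 members higher and 5 lower (library 1 alone, 7 and 5; library 3 alone, 1 and 3). Itga4 and Itga2 were higher, the second a collagen receptor subunit found on NK cells, at 1297 and 89.1 in MDM and 0.82, 3.81 and 0 in microglia (adjusted p = 0.0015; 5-library fit, 0.051; library 3 alone, 0.055). Itga6, a laminin receptor subunit, had 763 and 2173 in MDM and 14725, 10064 and 10911 in microglia, lower in each MDM library (-3.19 ± 0.52, adjusted p = 0.00054). Itgb5, which pairs with the alpha-v subunit, had 1811 and 17694 in MDM and 103226, 114393 and 72690 in microglia. It was lower in both (-4.07 ± 0.69, adjusted p = 0.00077; 5-library fit, 0.082), by 5.71 in library 1 and 2.42 in library 3 on the log2 scale.

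Of 16 complement genes 7 were lower in MDM and 2 higher, with a median of -1.78. Library 1 alone gave 8 lower and 2 higher, and library 3 alone 2 lower and 1 higher. C4b and C2, which together form the classical C3 convertase, differed by -4.90 ± 0.64 (adjusted p = 0.00012) and -3.66 ± 0.57 (adjusted p = 0.00042). C4b had 974 and 1769 in MDM and 50707, 45638 and 26265 in microglia, with no overlap. Cfp, which encodes properdin, the stabiliser of the alternative convertase, had 10909 and 8361 in MDM and 129, 148 and 180.5 in microglia. It was higher in both MDM libraries, against the direction of most called members (5.97 ± 0.76, adjusted p = 0.0001).

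The lysosome and phagocytosis list, 26 genes, had 17 members lower and 0 higher, with a median of -1.37. Alone, MDM library 1 gave 18 lower members and library 3 gave 4. Ctsf, a cathepsin, had 362 and 1886 in MDM and 16794, 13942 and 8782 in microglia (-3.94 ± 0.69, adjusted p = 0.00091; 5-library fit, 0.053). Library 3 lay between library 1 and microglia. The proteases Ctsl and Lgmn, the asparaginyl endopeptidase, showed the same order and passed with library 1 (adjusted p = 1.8e-05 and 2.9e-06), while library 3 alone gave 0.062, which missed the threshold, and 0.05, which just passed it before rounding. In the 5-library fit, Ctsl and Lgmn did not pass (adjusted p = 0.12 and 0.16).

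Receptors and bridging ligands for the uptake of dying cells were lower for 8 of 18 members and higher for 2 (library 1 alone, 8 and 1; library 3 alone, 4 and 1). Mertk, a receptor kinase for bound phosphatidylserine, had 658 and 2073 in MDM and 18874, 22959 and 14922 in microglia, and was lower in each MDM library alone (-4.82, adjusted p = 0.00013, and -3.17, adjusted p = 0.012). Pros1, which encodes protein S, a bridging ligand of MERTK, had 1375 and 6972 in MDM and 27689, 29292 and 26846 in microglia (-3.17 ± 0.51, adjusted p = 0.00053; 5-library fit, 0.068). Itgb3 had a log2 fold change of -2.81 ± 0.54 (adjusted p = 0.0019). The disease-associated microglia list, 26 genes, had 10 members lower and 2 higher in MDM. Library 1 alone gave 9 lower and 1 higher, and library 3 alone 1 lower and 2 higher. Timp2, an inhibitor of matrix metalloproteases, had a log2 fold change of -3.25 ± 0.49 (adjusted p = 0.00035; 5-library fit, 0.077), and Csf1, the macrophage growth factor, one of -3.26 ± 0.59 (adjusted p = 0.0012; 5-library fit, 0.081; library 3 alone, 0.051). Lgals3, which encodes galectin-3, was higher by 2.85 ± 0.58 (adjusted p = 0.003; 5-library fit, 0.078). Apoe did not pass the test, at 501731 and 396584 in MDM and 1578457, 386487 and 192706 in microglia, where microglia library 1 stood far above the rest (adjusted p = 0.94). Spp1, which encodes osteopontin, had 8352 and 7298 in MDM and 4400, 619 and 4205 in microglia and did not pass either (adjusted p = 0.18).

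MHC class II molecules present peptides to helper T cells, and 3 of their 11 tested genes were higher in MDM and 0 lower (library 1 alone, 1 and 0; library 3 alone, 0 and 0). H2-Ab1, a main beta chain, had 371214 and 237953 in MDM and 105104, 380472 and 40015 in microglia, and did not pass (adjusted p = 0.23). The overlap came from microglia library 2, which exceeded both MDM libraries for H2-Ab1. Summed over the list, the MDM libraries had 1494170 and 1221265 normalised counts and the microglia libraries 665564, 1848998 and 227682. Ciita, which switches on class II transcription, had 5539 and 2850 in MDM and 544, 2523 and 276 in microglia (2.46 ± 0.79, adjusted p = 0.038; 5-library fit, 0.19), and neither MDM library passed alone (adjusted p = 0.058 and 0.26). The calls of Ciita and of H2-DMb1, a chaperone chain for peptide loading, were lost without microglia library 1 (0.11 and 0.07) or library 3 (0.15 and 0.11). H2-DMb1 was higher by 1.25 ± 0.37 (adjusted p = 0.026; 5-library fit, 0.19), and alone the libraries gave 0.083 and 0.13. H2-Eb2, a less known beta chain gene, had 323 and 47.2 in MDM and 0, 14.5 and 2.38 in microglia (5.06 ± 1.26, adjusted p = 0.0099; 5-library fit, 0.11), with the highest value in library 1 and an adjusted p of 0.16 for library 3 alone. Its abundant neighbour and paralog H2-Eb1, with which it may share reads, had 202255 and 124666 in MDM and 53955, 158694 and 21026 in microglia and did not pass (adjusted p = 0.22). Of 16 genes of MHC class I presentation, 0 passed in either direction.

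The class II activator works through the X and the Y box. The promoters of these neighbouring genes are shown because, of the 8 class II members with a promoter in the table, only these 2 matched the letters searched for both boxes. Each window runs from 250 bases before the start of the gene to 50 after it, from RefSeq GRCm38.p6, written 5′ to 3′ on the strand of the gene. Capitals mark the X box (GCAAC, 1 base of any kind, GATG) and the Y box (CCAAT), searched on both strands.
H2-Eb1 promoter, chr17:34305617-34305916, plus strand: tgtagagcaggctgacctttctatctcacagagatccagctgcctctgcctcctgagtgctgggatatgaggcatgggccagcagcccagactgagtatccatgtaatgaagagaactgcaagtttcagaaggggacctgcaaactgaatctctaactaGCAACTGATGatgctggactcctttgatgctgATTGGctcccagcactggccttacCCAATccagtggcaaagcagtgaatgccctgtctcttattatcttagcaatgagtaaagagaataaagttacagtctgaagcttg
H2-Eb2 promoter, chr17:34325425-34325724, plus strand: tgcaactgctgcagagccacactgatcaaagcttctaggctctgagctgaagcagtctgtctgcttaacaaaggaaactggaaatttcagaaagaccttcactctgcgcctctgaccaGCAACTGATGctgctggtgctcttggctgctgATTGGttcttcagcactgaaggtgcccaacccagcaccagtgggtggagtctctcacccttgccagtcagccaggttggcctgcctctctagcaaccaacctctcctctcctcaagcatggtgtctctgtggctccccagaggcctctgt
The X box letters were found in 2 of the 8 list members with a promoter in the table and in 0.192% of 32851 promoters. The Y box letters were found in 8 of 8 and in 37.4%. An X box spelled with other letters would be missed, so a promoter without a match may still hold one. The match is of letters in the window and shows no binding.

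Type I interferon response genes set the 2 MDM libraries apart from each other. All 30 tested members were lower in MDM library 1 than in MDM library 3, with a median difference of -2.24 on the log2 scale, while the median over all tested genes was 0. Summed over the list, the MDM libraries had 132429 and 513123 normalised counts and the microglia libraries 148136, 155607 and 176366. Only MDM library 3 therefore stood above microglia. Against microglia, 1 member was higher and 0 lower: Isg20, an exonuclease that degrades viral RNA, at 5088 and 9545 in MDM and 668, 439 and 733 in microglia (3.54 ± 0.91, adjusted p = 0.012; alone, 0.083 and 0.053). The median member differed from microglia by -0.42 in library 1 and by 1.67 in library 3, and alone 0 members passed in each. The following genes were chosen after their values were seen. Rsad2, which encodes the antiviral enzyme viperin, had 1662 and 36217 in MDM and 2591, 1337 and 3608 in microglia. Ifit1, which binds viral RNA, had 1533 and 22024 in MDM and 2209, 2738 and 3180 in microglia. Isg15, a ubiquitin-like modifier, had 1732 and 15492 in MDM and 1315, 981 and 2672 in microglia. In each of the 3, MDM library 3 exceeded every other library and library 1 lay within the microglia range for Rsad2 and Isg15 and below it for Ifit1. The group difference did not pass for any of them (adjusted p = 0.4, 0.52 and 0.26).

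The promoters of these 3 genes are shown because they hold the interferon-stimulated response element, the sequence bound by the STAT and IRF factors that interferon activates. Windows and source are as for the class II genes, and capitals mark GAAA, 2 bases of any kind and GAAA on either strand.
Rsad2 promoter, chr12:26456403-26456702, minus strand: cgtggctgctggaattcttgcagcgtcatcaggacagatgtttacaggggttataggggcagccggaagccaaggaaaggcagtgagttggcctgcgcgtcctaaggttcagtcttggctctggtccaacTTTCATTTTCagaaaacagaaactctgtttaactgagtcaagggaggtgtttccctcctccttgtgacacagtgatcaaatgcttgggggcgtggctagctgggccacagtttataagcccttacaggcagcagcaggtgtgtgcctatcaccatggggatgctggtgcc
Ifit1 promoter, chr19:34640639-34640938, plus strand: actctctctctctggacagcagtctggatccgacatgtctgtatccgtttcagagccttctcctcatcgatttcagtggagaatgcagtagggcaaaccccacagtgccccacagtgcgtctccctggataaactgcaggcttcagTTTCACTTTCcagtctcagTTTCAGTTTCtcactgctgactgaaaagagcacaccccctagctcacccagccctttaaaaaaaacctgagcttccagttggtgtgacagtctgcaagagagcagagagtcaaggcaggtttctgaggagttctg
Isg15 promoter, chr4:156200769-156201068, minus strand: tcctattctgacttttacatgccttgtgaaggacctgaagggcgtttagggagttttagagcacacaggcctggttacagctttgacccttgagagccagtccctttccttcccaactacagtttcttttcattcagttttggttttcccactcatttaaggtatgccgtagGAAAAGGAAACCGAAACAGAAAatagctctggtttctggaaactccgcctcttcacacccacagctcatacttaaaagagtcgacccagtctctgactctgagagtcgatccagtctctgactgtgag
Isg15 holds 3 overlapping matches in 1 run of capitals, Ifit1 holds 2 and Rsad2 holds 1. The element was found in 13 of the 23 list members with a promoter in the table, and in 3.44% of 32851 promoters.

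**Figure D3:**
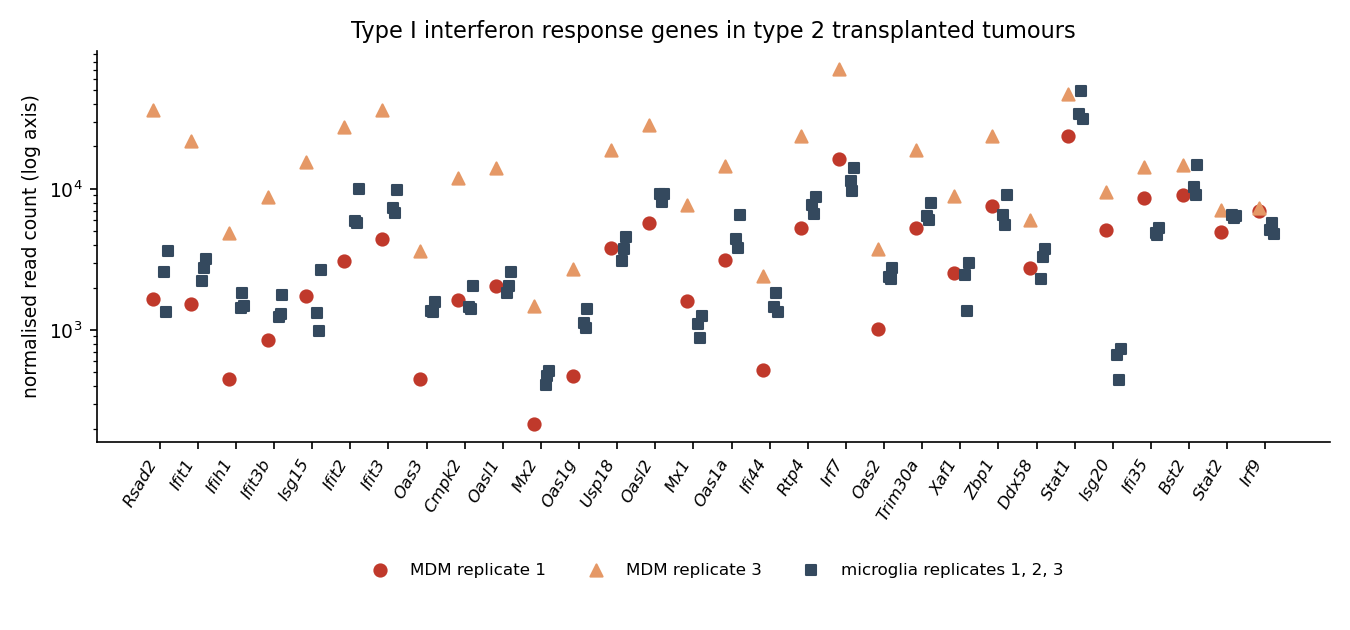
Normalised read counts (log axis) of the 30 type I interferon response genes, ordered by the difference between the MDM libraries, with MDM libraries 1 and 3 left of the 3 microglia libraries. MDM library 3 is above MDM library 1 for all 30 genes, and MDM library 1 mostly lies among or below the microglia libraries.

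Of 25 inflammatory cytokine and NF-kB genes, 5 were higher in MDM and 1 lower, while 18.0% of all tested genes were called. The median member differed on the log2 scale by 0.74 with both MDM libraries, by 0.27 with library 1 alone and by 1.14 with library 3 alone. Il1b, the secreted form of interleukin 1, had 9147 and 22720 in MDM and 2067, 2112 and 1098 in microglia (3.10 ± 0.80, adjusted p = 0.013; library 1 alone, 0.11). Il1a, its cell-bound relative, went the other way, with 176 and 1927 in MDM and 5650, 9043 and 5542 in microglia (-3.49 ± 0.75, adjusted p = 0.004; 5-library fit, 0.11; library 3 alone, 0.14). The groups overlapped for neither gene. The NF-kB inhibitor Nfkbid was higher by 2.04 ± 0.53 (adjusted p = 0.012; library 3 alone, 0.11) and the costimulatory receptor Cd40 by 3.23 ± 0.88 (adjusted p = 0.017; alone, 0.11 and 0.06; without microglia library 1, 0.056).

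Alternative activation and immunosuppression genes had 6 of 25 members higher and 3 lower. Alone, library 1 gave 2 higher and 5 lower and library 3 gave 0 higher and 2 lower. Arg1, the arginase that depletes arginine from T cells, had 3181 and 5047 in MDM and 24.6, 258 and 30.1 in microglia. Both MDM libraries lay far above every microglia library (6.08 ± 1.53, adjusted p = 0.011), and each MDM library alone just missed the threshold (adjusted p = 0.059 and 0.066). Mgl2, a galactose lectin of dendritic cells and alternatively activated macrophages, was higher by 5.89 ± 1.5 (adjusted p = 0.012; 5-library fit, 0.07; library 3 alone, 0.13; without microglia library 1, 0.05). The checkpoint protein Vsir and the ectonucleotidase Entpd1 (CD39), which breaks down extracellular ATP, had log2 fold changes of -1.95 ± 0.30 (adjusted p = 0.00039; 5-library fit, 0.052) and -1.80 ± 0.29 (adjusted p = 0.00051; 5-library fit, 0.056), each also in both MDM libraries alone. Cd274, which encodes the checkpoint ligand PD-L1, had 2482 and 3760 in MDM and 1914, 4150 and 2184 in microglia, and the groups overlapped (adjusted p = 0.87).

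Of 20 secreted growth factors, 7 were lower in MDM and 1 higher (library 1 alone, 7 and 1; library 3 alone, 3 and 0). Tgfa, a ligand of the EGF receptor, had 22.6 and 549 in MDM and 4822, 4224 and 4175 in microglia (-5.27 ± 0.88, adjusted p = 0.00062; 5-library fit, 0.085). MDM library 3 held far more Tgfa than library 1 and still lay below every microglia library (alone, -3.00, adjusted p = 0.018). Pdgfb, a growth factor for pericytes, had 1032 and 678 in MDM and 3108, 4704 and 2061 in microglia (-1.90 ± 0.32, adjusted p = 0.00077; 5-library fit, 0.064). Matrix genes and proteases had 5 of 24 members higher and 5 lower (library 1 alone, 2 and 5; library 3 alone, 3 and 2). Sparc, a collagen-binding protein abundant in microglia, had a log2 fold change of -4.04 ± 0.85 (adjusted p = 0.0036; 5-library fit, 0.098; library 3 alone, 0.13). Timp1, which inhibits metalloproteases, had 318 and 836 in MDM and 0, 1.52 and 4.75 in microglia, higher in each MDM library (7.73 ± 1.69, adjusted p = 0.0045). Ecm1 was higher by 3.15 ± 0.74 (adjusted p = 0.0071; 5-library fit, 0.1; library 3 alone, 0.076).

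Of 23 cholesterol synthesis genes, 6 were higher in MDM and 0 lower, with a median of 1.17 (library 1 alone, 5 and 0; library 3 alone, 1 and 0). Fdps, which makes farnesyl pyrophosphate, had 4440 and 2392 in MDM and 719.7, 773 and 918 in microglia, a 4.07-fold difference (adjusted p = 0.00066) that passed in each MDM library (adjusted p = 0.00046 and 0.028). Insig1, Fdft1 and Mvd were higher by 3.56-, 3.02- and 2.54-fold (adjusted p = 0.0026, 0.0061 and 0.019; 5-library fit, 0.065 for Fdft1 and 0.051 for Mvd) and passed in library 1 but not in library 3 alone (adjusted p = 0.063, 0.13 and 0.13). Without microglia library 2, Mvd had 0.056. In cholesterol efflux and lipid storage, 3 of 20 genes were higher and 2 lower, while 18.0% of all tested genes were called. The median member differed by 0.082 in library 1 alone and by 0.433 in library 3 alone. Abca1, the exporter of cholesterol, had 966 and 1945 in MDM and 15989, 8219 and 7690 in microglia (-2.87 ± 0.51, adjusted p = 0.0011). Nr1h3, the sterol-sensing receptor LXR-alpha that drives Abca1 transcription in macrophages, had 595 and 1500 in MDM and 113, 70.8 and 69.7 in microglia, the opposite order (3.50 ± 0.75, adjusted p = 0.0039). Mylip, which degrades the LDL receptor, had a log2 fold change of -1.73 ± 0.29 (adjusted p = 0.0006) and the fatty acid carrier Fabp4 was higher by 7.04 ± 1.24 (adjusted p = 0.00097).

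Among 30 oxidative phosphorylation genes, 7 were higher in MDM and 0 lower, with a median of 0.94 that was nearly the same in MDM library 1 (0.91) and library 3 (0.98), but alone the libraries gave 0 and 1 called member. Uqcrfs1, the iron-sulphur subunit of complex III, had 6273 and 7594 in MDM and 2904, 2430 and 3372 in microglia, a 2.4-fold difference (adjusted p = 0.0089; library 1 alone, log2 fold change 1.13). Of the other called members, Atp5o, Cox5a and Atp5d lost the call in the 5-library fit (adjusted p = 0.12, 0.11 and 0.081). They also lost it without microglia library 2 (0.11, 0.09 and 0.13). In glycolysis and hypoxia, 3 of 26 genes were higher and 2 lower, near the 18.0% called over all tested genes. The median member differed by 0.565 in library 1 alone and by 1.07 in library 3 alone. Pfkp, the platelet form of phosphofructokinase, had 9598 and 6385 in MDM and 301, 615 and 409 in microglia (4.21 ± 0.89, adjusted p = 0.0036; library 3 alone, 0.053). Proliferation genes had 0 of 30 higher and 1 lower (alone, 0 in each library), the replication helicase subunit Mcm3 (-1.34 ± 0.35, adjusted p = 0.013; 5-library fit, 0.12; alone, 0.063 and 0.07; without microglia library 3, 0.053). Mki67, a marker of cycling cells, had 100.1 and 484 in MDM and 348, 121 and 986 in microglia, and the groups overlapped (adjusted p = 0.76).

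Immediate-early and stress genes, which respond within minutes to signals and to tissue handling, had 8 of 25 members higher in MDM and 1 lower, with a median of 2.05 (library 1 alone, 7 and 1; library 3 alone, 6 and 1). Ier2 had 15261 and 10178 in MDM and 1457, 1146 and 936 in microglia (3.42 ± 0.56, adjusted p = 0.00056). The orphan nuclear receptors Nr4a1 and Nr4a2 were higher by 4.18 ± 0.84 (adjusted p = 0.0027) and 4.45 ± 0.72 (adjusted p = 0.00056), each also in both MDM libraries alone. Rhob, a stress-induced GTPase, was the exception, with 406 and 2132 in MDM and 9475, 11357 and 6486 in microglia (-3.25 ± 0.54, adjusted p = 0.0006; 5-library fit, 0.072).

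**Figure D4:**
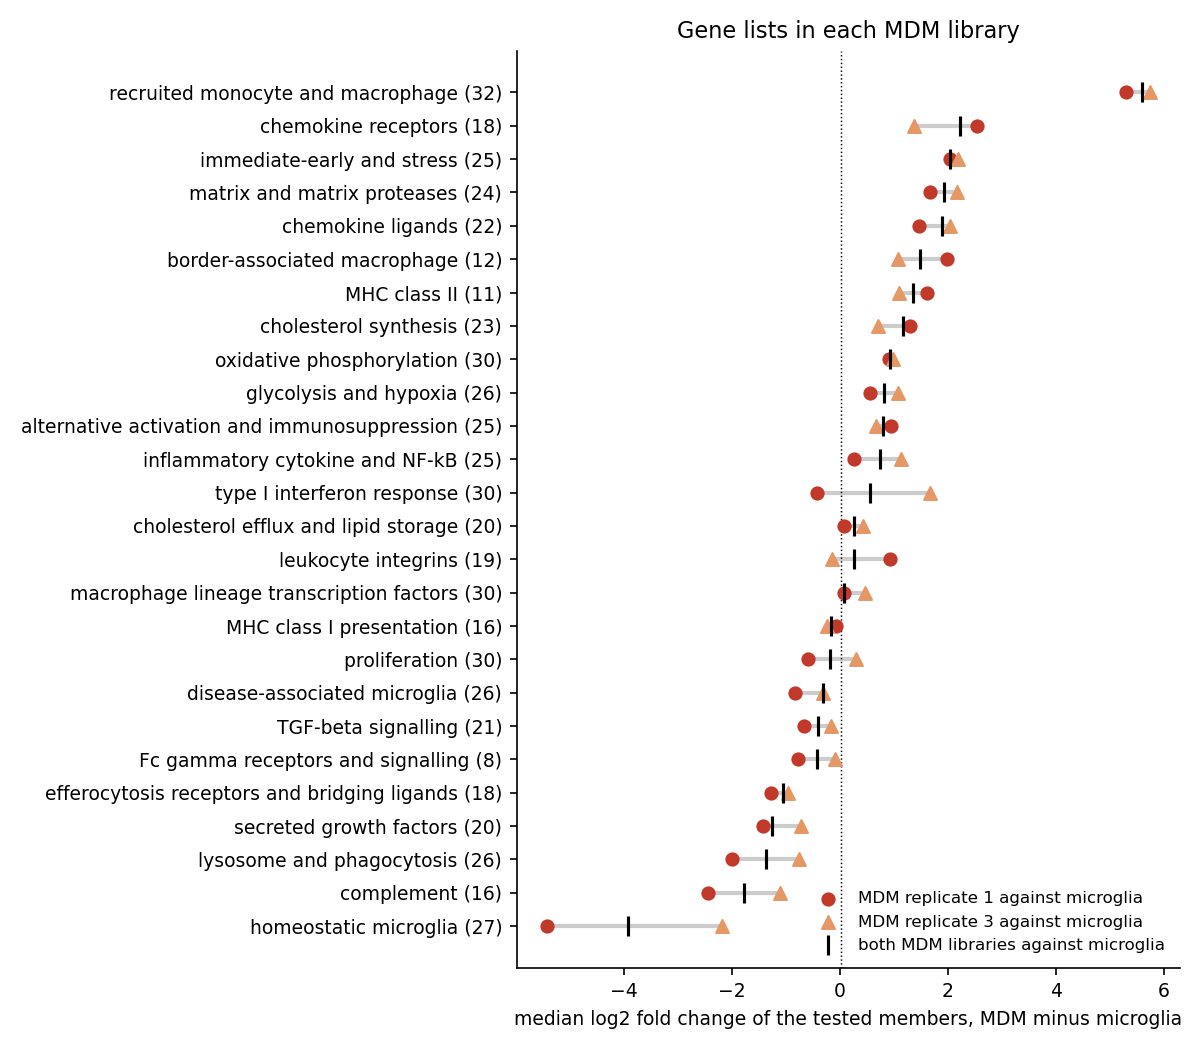
Median log2 fold change of MDM over microglia for each macrophage gene list (number of tested members in brackets), for MDM library 1 alone, MDM library 3 alone and both together. The recruited monocyte list lies at 5.58 and the homeostatic microglia list at -3.93, and the interferon list has medians on both sides of 0, at -0.42 for library 1 and 1.67 for library 3.

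The largest rises were transcripts of cytotoxic lymphocytes. All 17 genes of the NK and cytotoxic granule list were higher in MDM, all 17 also in library 1 alone and 13 in library 3 alone, with median log2 fold changes of 8.26 for both libraries, 9.94 for library 1 and 6.80 for library 3. Every one was higher in library 1 than in library 3, and the list summed to 343347 and 38441 normalised counts in the MDM libraries and to 286, 402 and 397 in the microglia libraries. Gzma, a granule protease (chromosome 13, 113093824 to 113100981), had 93918 and 7596 in MDM and 28.7, 7.62 and 26.9 in microglia, a log2 fold change of 10.44 ± 1.31 (adjusted p = 9.2e-05). Ncr1, the activating receptor NKp46 that marks NK cells (chromosome 7, 4337715 to 4345184), had 27257 and 2437 in MDM and 4.92, 11.4 and 4.75 in microglia (10.09 ± 1.52, adjusted p = 0.00033). No microglia library held more than 28.7 normalised counts of either gene. Serpinb9b, a granzyme inhibitor family member, had 3113 and 513 in MDM and no reads in the 3 microglia libraries, which makes it at least 764-fold higher when microglia are set to 3 reads each (adjusted p = 1.2e-05). Gzmb, Fasl, Klrg1, Klrb1a, Klrb1c and the lymphocyte adaptor Acap1 were also among the 12 largest rises, at log2 fold changes of 9.80, 9.38, 9.18, 9.01, 9.07 and 9.04. The last 3 were Klra4, Klra8 and Klra9, Ly49 receptors of one cluster of near-identical genes on chromosome 6, whose counts are uncertain because reads can be shared among copies. Klre1, another lectin-like receptor of NK cells, rose by 8.50 ± 1.18 (adjusted p = 0.00018).

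Markers of other lymphocytes and of dendritic cells moved with the MDM libraries too. T cell genes were higher for 9 of 15 members, 7 in library 1 alone and 0 in library 3 alone. Lck, the kinase of the T cell receptor and of NK cells, had 10906 and 1113 in MDM and 44.3, 109 and 144 in microglia (adjusted p = 0.0084; 5-library fit, 0.061; library 3 alone, 0.17), and Cd8a, the coreceptor of cytotoxic T cells, had 889 and 616 in MDM and 16.4, 16 and 35.6 in microglia (adjusted p = 0.011; library 3 alone, 0.097). Of 10 B cell genes 5 were higher and 1 lower (library 1 alone, 7 and 0; library 3 alone, 2 and 1), with Cd79a, a chain of the B cell receptor, at 15180 and 695 in MDM and 26.2, 22.9 and 15.0 in microglia (adjusted p = 0.0022; 5-library fit, 0.051; library 3 alone, 0.078) and Ms4a1, the antigen CD20, also higher (adjusted p = 0.00054). The lower gene, Cd22, is also made by microglia, with 1301 and 726 in MDM and 4354, 2944 and 2267 in microglia (adjusted p = 0.0083; 5-library fit, 0.074; library 1 alone, 0.095). Of 14 classical dendritic cell genes 8 were higher and 1 lower (library 1 alone, 9 and 1; library 3 alone, 3 and 0), with Cd24a at 4787 and 1193 in MDM and 3.28, 16 and 13.5 in microglia (adjusted p = 1.2e-05) and Clec9a, a receptor of cross-presenting dendritic cells, at 347 and 238 in MDM and 2.46, 9.14 and 3.17 in microglia (adjusted p = 0.0014). Of 8 tested mast cell and basophil genes 2 were higher, Kit and the chymase Cma1, the second at 2496 and 188 in MDM and 3.28, 0 and 0 in microglia (adjusted p = 0.00038). Of 12 border-associated macrophage genes 3 were higher and 0 lower, namely Ms4a7 (3.72 ± 0.77, adjusted p = 0.0033), Clec10a (6.47 ± 1.36, adjusted p = 0.0035; library 3 alone, 0.061) and Pf4 (3.30 ± 0.94, adjusted p = 0.021; alone, 0.086 and 0.1; without microglia library 1, 0.06). Summed over the T cell list, the MDM libraries had 25261 and 5652 normalised counts and the microglia libraries 366 to 1012. The dendritic cell list summed to 40326 and 18713 in MDM and to 10010 to 12742 in microglia. The mast cell list summed to 4274 and 532 in MDM and to 5.7 to 20.6 in microglia, but 4 of its 10 genes were at 0 in all 5 libraries. The B cell list exceeded microglia in MDM library 1 only, with 26110 and 3398 in MDM and 4300 to 6129 in microglia. Which sorted cells carried these transcripts was not tested.

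The neutrophil, plasmacytoid dendritic cell, oligodendrocyte, oligodendrocyte progenitor, astrocyte and neuron lists held 1 to 5 called members each. Of 10 plasmacytoid dendritic cell genes 2 were higher and 1 lower, the lower one being Siglech, which mouse microglia also make (572 and 9392 in MDM and 41350, 56552 and 31060 in microglia, adjusted p = 0.0038; 5-library fit, 0.11; library 3 alone, 0.14). Of 10 neutrophil genes 1 was higher, Retnlg, at 498 and 148 in MDM and 0, 22.9 and 5.54 in microglia (adjusted p = 0.025; 5-library fit, 0.093; library 3 alone, 0.2; without microglia library 1, 0.11; voom, 0.072; no filter, 0.058), and 1 lower, Csf3r, the receptor for G-CSF (-1.91 ± 0.46, adjusted p = 0.0079; 5-library fit, 0.089; library 3 alone, 0.19). Of 8 Fc gamma receptor and signalling genes 1 was lower, the inositol phosphatase Inpp5d (-1.54 ± 0.36, adjusted p = 0.0073; library 3 alone, 0.061). Of 16 astrocyte and neural stem cell genes 2 were higher and 3 lower, led by the glutamate transporter Slc1a3 at 187 and 1322 in MDM and 7982, 11285 and 5050 in microglia (adjusted p = 0.00015; 5-library fit, 0.07). Oligodendrocyte genes gave 1 of 5 higher and 1 lower, oligodendrocyte progenitor genes 0 of 12 and 1, and neuron genes 0 of 8 and 1. Endothelial and mural genes gave 0 of 7 and 1, and red blood cell genes 0 of 5 and 0. Over all tested genes 18.0% were called. The called genes Mbp, Cspg5, Snap25 and Cdh5 of these lists lost the call in 10 of 17, 11 of 17, 10 of 16 and 10 of 17 alternatives. With no filter they missed the threshold (limma, adjusted p = 0.077, 0.07, 0.066 and 0.082), while Mag kept its call there. In the 5-library fit Mbp and Cspg5 missed it (limma, adjusted p = 0.19 and 0.071). Hes5, another called gene, lost the call in 9 of 17 alternatives. The median neuron gene differed from microglia by 2.14 in MDM library 1 and by -0.91 in library 3. The 10 neuron genes summed to only 228.8 and 17.5 normalised counts in MDM and to 35.6 to 109 in microglia. At such levels these medians depend on few reads and on the pseudocount. The neural stem cell factor Sox2 was at 0 in all 5 libraries, and the neutrophil granule gene Ngp was at 0 in both MDM libraries, with 0, 2270 and 330.9 in microglia.

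**Figure D5:**
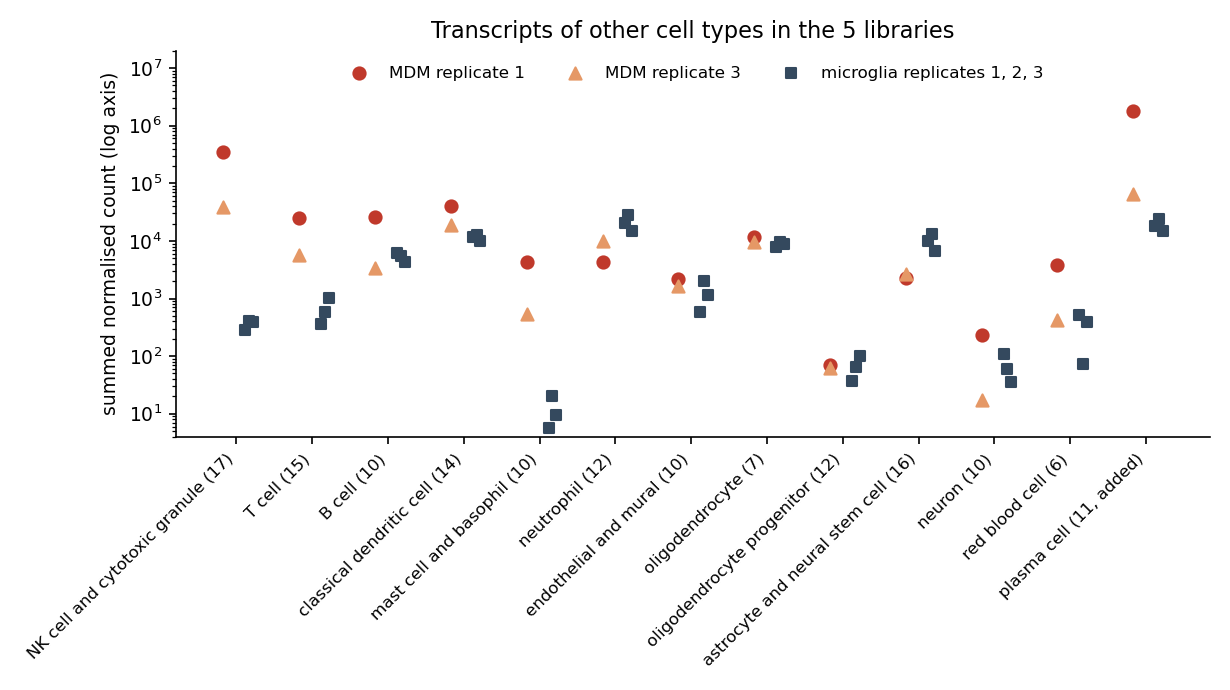
Summed normalised counts (log axis) of marker lists for other cell types in each library, with MDM libraries 1 and 3 left of the 3 microglia libraries and the number of genes in brackets. NK sums are 343347 and 38441 in MDM and at most 402 in microglia, and the plasma cell sums, a set chosen after its values were seen, are 1769125 and 64615 in MDM and at most 23975 in microglia.

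Many of the largest falls were genes at or near 0 in MDM. Sema6c, a transmembrane semaphorin of axon guidance (chromosome 3, 95160420 to 95174050), had no reads in either MDM library and 188, 128 and 187 normalised counts in microglia, so it was at least 54.2-fold lower against 3 reads per library (adjusted p = 6e-06). Gprasp2, Fzd8, Btnl6, Duoxa1 and Pcdhga12 also had no reads in MDM and were at least 58.8-, 43.5-, 52.0-, 36.9- and 29.9-fold lower. Fzd8 is a Wnt receptor, and Duoxa1 helps to mature an enzyme that makes hydrogen peroxide. Kcnma1, the pore of the BK potassium channel, had 0 and 11.3 in MDM and 445, 511 and 381 in microglia (adjusted p = 0.00022), and Arvcf, a catenin of cell junctions, had 26.2 and 0.873 in MDM and 722, 1173 and 549 in microglia (adjusted p = 0.00069). P3h2, a collagen prolyl hydroxylase, had 2.38 and 143 in MDM and 2382, 4046 and 2030 in microglia, and Ildr2 had 0 and 181 in MDM and 1980, 906 and 1240 in microglia. For P3h2 and Ildr2 library 3 was again the higher MDM library, and Ildr2 did not pass in it alone (adjusted p = 0.15). The 5-library fit called neither (adjusted p = 0.074 and 0.14). Plekhh2 and the atypical cadherin Fat3 had at most 0.873 normalised counts in MDM and at least 121 in each microglia library. Fat3 lost its call without microglia library 1, 2 or 3 (adjusted p = 0.059, 0.069 and 0.051), with no filter (0.061) and with voom (0.05). Fat3 did not pass in either MDM library alone (log2 fold change -7.09 and -6.18), nor Pcdhga12 in library 3 alone (-6.51).

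Fewer genes were called for differences between tumour classes, and the test of them recovers fewer true changes. In simulated data it recovered 25.4% of 4-fold changes for the difference to type 1 and 23.9% for that to spontaneous tumours. For MDM against microglia it recovered 44.8%. Fewer calls are therefore not a measure of fewer differences. The MDM against microglia difference itself differed between type 2 and type 1 transplanted tumours for 129 genes, 0.749% of those tested (68 higher, 0.395%, and 61 lower, 0.354%, in type 2). That split was 52.7% higher, and 22.3% higher with libraries scaled to the same total, which moved the median over all genes to -0.52, against -0.05 here. Rab7b, a small GTPase of lysosomal transport, had 2027 and 3026 in MDM and 514, 86.8 and 979 in microglia of type 2, against 538 ± 197 (SD, n = 4) in MDM and 2639 ± 628 (SD, n = 3) in microglia of type 1. Its order was opposite in the 2 tumour types (5.13 ± 0.87, adjusted p = 0.012; without type 2 MDM library 3, 0.093). Pmp22, a myelin and epithelial membrane protein, had 392.1 and 6022 in MDM and 16334, 10216 and 16942 in microglia of type 2, against 71.5 ± 37.0 (SD, n = 4) in MDM and 14318 ± 1551 (SD, n = 3) in microglia of type 1. It was lower in MDM of both types, by less in type 2 (4.54 ± 0.99, adjusted p = 0.038), and MDM library 3 held most of it, without which the difference was 2.58 (adjusted p = 0.22). It also failed with the replicate block (0.17), voom (0.09), no filter (0.073), libraries scaled to the same total (0.06) and without any one of 9 other libraries (0.055 to 0.11). Tnfrsf25, a death receptor of lymphocytes, had 45.3 and 10.5 in MDM and 12.3, 3.81 and 9.50 in microglia of type 2, against 1286 ± 488 (SD, n = 4) in MDM and 2.42 ± 3.57 (SD, n = 3) in microglia of type 1 (-7.62 ± 1.19, adjusted p = 0.0074; without type 2 MDM library 3, 0.072; replicate block, 0.093). The count rested on single libraries. It was 990 without type 2 MDM library 1 and 12 without MDM library 3, 38, 31 and 43 without type 2 microglia library 1, 2 and 3, and 28 to 47 without type 1 MDM library 2 or 3 or type 1 microglia library 1 or 2. The replicate block left 1 gene. No marker passed: Itga4, Ccr2, Tmem119 and P2ry12 gave adjusted p values of 0.67, 0.98, 0.079 and 0.24.

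Against the mean of both spontaneous tumour types, 22 genes differed, 0.128% of those tested (20 higher, 0.116%, and 2 lower, 0.0116%). The split turned with no filter (47 higher and 62 lower), without microglia library 3 of type 2 spontaneous tumours (76 and 113) and without transplanted MDM library 1 (23 and 30), and 0 genes passed with the replicate block, voom or only the compared groups (1051, 2391 and 1746 at an unadjusted p under 0.05). Klrb1c, the NK receptor NK1.1, had 24236 and 1611 in MDM and 17.2, 5.33 and 12.7 in microglia of type 2 transplanted tumours. Its levels in spontaneous tumours were 408 ± 157 (SD, n = 2) in type 1 MDM, 2426 in the 1 type 2 MDM library, 168 ± 101 (SD, n = 3) in type 1 microglia and 96.5 ± 55.8 (SD, n = 3) in type 2 microglia. The difference was 5.96 ± 1.05 (adjusted p = 0.042), and 4.01 (adjusted p = 0.068) without transplanted MDM library 1. It also failed with only the compared groups (0.23), the replicate block (0.37), voom (0.22), deposited values (0.074), the same total (0.073) and sex as a covariate (0.065). Without transplanted microglia library 1, 2 or 3 it had 0.06, 0.11 and 0.06. In all, Klrb1c lost the call in 13 of 25 alternatives. Eif5b, a translation initiation factor, had 802 and 1458 in MDM and 1301, 753 and 904 in microglia of type 2 transplanted tumours, and the groups overlapped. In spontaneous tumours the 1 type 2 MDM library held 57.9, against 999 ± 207 (SD, n = 3) in type 2 microglia, and type 1 MDM held 356 ± 41.4 (SD, n = 2), against 924 ± 120.1 (SD, n = 3) in type 1 microglia (2.89 ± 0.42, adjusted p = 0.012; 0.11 with only the compared groups, 0.37 with the replicate block and 0.12 with voom). Without transplanted MDM library 3, 73 genes passed. These comparisons share the type 2 transplanted libraries.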

How the data were processed

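RNA-seq libraries of sorted MDM and microglia were made with TRIzol, the miRNeasy Micro kit and the SMART-Seq v4 Ultra Low Input kit, per the labels' protocols. STAR 2.7.8a, mm10 and DESeq2 are named in the submitters' processing notes; the counting tool and strand setting are not given in the sources used here, so overlapping antisense genes may share reads. The deposited table, which was labelled as normalised counts, holds log2 values of a variance-stabilised kind from the authors for 30749 genes in 21 libraries. Inverting its formula returned whole reads for 100% of values (tolerance 1e-06), from which normalised counts and library totals were computed. The table differs in unit from the normalised counts that the planned design assumed, so the test was run on these recovered values.

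The main test was limma-trend (limma 3.58.1, R 4.3.3) on log2(normalised count + 1), with 1 mean for each of 8 tumour groups, over 17216 genes with at least 10 normalised counts in at least 3 libraries, Benjamini-Hochberg adjustment and a threshold of 0.05. The same fit gave the differences between tumour classes and, with 1 MDM library left out, each MDM library alone. The procedure was tested on simulated data. Sums, sequences and figures were made with python 3.11.15, numpy 2.4.6, pandas 2.3.3 and matplotlib 3.10.9. Symbols matched RefSeq (GRCm38.p6) for 96.3% of genes.

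Named genes were the 4 markers and 11 further macrophage genes, the 12 largest rises and falls that were called and averaged 50 or more in the higher group, up to 4 members of each of 39 gene lists with the smallest p, the 8 largest differences either way between classes, and the 8 largest either way between the MDM libraries. A few genes the rule names are not reported here. Predicted genes and immunoglobulin or T cell receptor segments were left out of the size rankings. The members and lists were chosen with earlier results of these data known. Alternatives covered the pseudocount, the filter, normalisation (quantile, same total), array weights, sex as a covariate, a fit of only the compared groups, a replicate block, the deposited log2 values, voom on the recovered reads, and leaving out each library; the same alternatives for each MDM library alone were added after seeing the data. The small number of libraries limits the precision of every value.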

Additional observations from a re-analysis of the deposited data

Results flagged for a closer look

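These results were picked out because the MDM against microglia difference itself differed between type 2 transplanted tumours and another tumour class by the test of that difference (limma, adjusted p under 0.05).

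Against type 1 transplanted tumours 129 genes differed. The named ones that were higher in type 2, by log2 difference, were the eotaxin Ccl24 (6.56), the metallothionein Mt2 (5.63), Stra6l (5.14), Rab7b (5.13), Tmem51 (5.02), Tmem100 (4.72), Pmp22 (4.54) and Eva1a (4.37). They were not of one kind. Ccl24 had 435 and 276 normalised counts in MDM and 474, 369 and 149.6 in microglia of type 2, against 6.49 ± 7.31 (SD, n = 4) in MDM and 364 ± 175 (SD, n = 3) in microglia of type 1, so that the MDM values differed between the types. Tmem51 had 3738 and 4370 in MDM and 58.2, 297 and 118 in microglia of type 2, against 3895 ± 1514 (SD, n = 4) in MDM and 3976 ± 1599 (SD, n = 3) in microglia of type 1, so that the microglia values did. For Tmem100, Pmp22 and Eva1a MDM library 3 held far more than library 1, with 52.4 and 620.1 for Eva1a.

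The named genes that were lower in type 2 were Susd2 (-9.86), the lysosomal channel Mcoln3 (-9.27), the B cell and follicular helper receptor Cxcr5 (-8.18), the scavenger receptor Cd163l1 (-8.08), the erythroid and mast cell factor Gata1 (-7.8), Tnfrsf25 (-7.62), Dntt (-7.49), which adds bases to antigen receptor joints, and Sostdc1 (-7.43). All 8 were detected in type 1 MDM, at 1805 ± 530.1 (SD, n = 4) for Cxcr5 and 317 ± 284 for Dntt. In type 2 MDM they were at or near 0, except Cxcr5 at 94.2 and 11.3 and Tnfrsf25 at 45.3 and 10.5. Where groups were at 0 these sizes depend on the pseudocount and are no fold changes.

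Against spontaneous tumours 22 genes differed. The named ones that were higher were Klrb1a (8.74), Tmem163 (8.1), Klrb1c (5.96), the sialyltransferase St8sia6 (3.84), the adaptor Dok2 (3.6), Esf1 (3.01), Mphosph8 (3.0) and Eif5b (2.89), and those that were lower were Lrfn1 (-4.76) and the sulphotransferase Chst15 (-2.45). For Esf1, Mphosph8 and Eif5b the type 2 spontaneous MDM library was the lowest, with 22.5, 19.3 and 57.9 normalised counts. Lrfn1 had 22.6 and 5.24 in MDM and 423, 318 and 319.8 in microglia of type 2 transplanted tumours, against 163 ± 9.03 (SD, n = 2) in MDM and 208 ± 74.5 (SD, n = 3) in microglia of type 1 spontaneous tumours.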

How the results depend on the processing

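Called genes of MDM against microglia numbered 3094. They numbered 1677 when only the compared groups were fitted, and 1054 to 2842 when 1 library was left out, with 2053 without microglia library 1, 1930 without microglia library 2 and 1054 without MDM library 1. MDM library 1 alone gave 2842 (2143 to 2430 without a microglia library) and MDM library 3 alone 1054 (533 to 786, with 533 without microglia library 1 and 640 without library 2). Scaling to the same total made 63.6% and 60.9% of the calls of library 1 and library 3 higher in MDM, and voom 65.7% and 70.0%, against 50.5% and 50.4%. The replicate block gave 2313 calls for both libraries, 1534 for library 1, 154 for library 3, 1 for the difference to type 1 and 0 for the difference to spontaneous tumours. Deviations of same-numbered MDM and microglia libraries correlated at 0.035 and 0.052 in these tumours, and at 0.046 to 0.241 in the others. Differently numbered libraries reached 0.018 in these tumours and 0.045 in type 1 transplanted tumours. With 2 MDM libraries in a group, their deviations mirror each other, so the signs are tied. All 8 same-numbered pairs were of one sex, and no label says that a number marks 1 animal.

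The difference to type 1 transplanted tumours was called for 129 genes, 230 with a pseudocount of 8, 81 with the filter within type 2 libraries, 256 with array weights, 387 with only the compared groups, 237 on deposited values, 63 with voom, and 12 to 990 with 1 library left out; 28 to 47 genes passed without type 1 MDM library 2 or 3, type 1 microglia library 1 or 2, or any 1 microglia library of type 2. The difference to spontaneous tumours was called for 22 genes, 13 with a pseudocount of 8, 109 with no filter, 3 with the same total, 9 with sex as a covariate, 9 on deposited values, and 4 to 189 with 1 library left out, with 189 without microglia library 3 of type 2 spontaneous tumours. It was 0 with only the compared groups, the block or voom (1746, 1051 and 2391 genes at an unadjusted p under 0.05). Leaving out the 1 type 2 spontaneous MDM library could not be run. None of the 16 and 10 genes named for these differences was called in every alternative; of the 141 named genes called for MDM against microglia, 60 were.

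Some genes that were not called changed sign. Apoe was 0.082 with quantile normalisation and -0.808 to 0.709 with 1 library left out. The leave-out ranges were -0.523 to 5.221 for Ccr9, -1.44 to 0.862 for Mobp, -3.854 to 0.659 for Olig1, -0.456 to 3.587 for Stmn2, -0.101 to 5.075 for Tubb3 and -1.782 to 0.48 for Mki67, each turned by MDM library 1 (Mki67 also by microglia library 3, at 0.102), and -0.06 to 0.579 for Cd274, turned by MDM library 3. The causes were not tested.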

Other observations

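Further genes separated the MDM libraries from each other. Those highest in library 1 over library 3 included Bhlha15, a transcription factor of secretory cells such as plasma cells, with 1726 and 0 normalised counts in MDM and 8.2, 0 and 15.8 in microglia. Kdelr3, which returns proteins to the endoplasmic reticulum, had 644 and 0 in MDM and 18.9, 0 and 0 in microglia, Muc20 852 and 0 in MDM and 0.82, 0 and 0 in microglia, and Tspan15 934 and 0 in MDM and 5.74, 0.762 and 10.3 in microglia. Pycr1, an enzyme of proline synthesis, had 2836 and 3.49 in MDM and 52.5, 51.8 and 95.0 in microglia, so that library 1 lay above and library 3 below every microglia library. The Y-linked genes Eif2s3y and Ddx3y followed the sex of the mice. Ifi202b, an interferon-inducible DNA sensor whose presence differs between mouse strains, had 2056 and 0 in MDM and 1917, 0 and 0 in microglia, and was thus detected in both libraries numbered 1 and in none of the others of this class.

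Genes highest in library 3 over library 1 included Il6, at 0 and 324 in MDM and 95.1, 414 and 104 in microglia, and Gp9, at 0 and 159.8 in MDM and 304, 395 and 305 in microglia. Csmd3, Wscd1 and Naalad2 had 0, 0 and 1.19 in library 1 and 202, 185 and 367 in library 3, against at least 627, 633 and 864 in every microglia library. Fmr1nb and Pnma2 were at 0 in library 1, and in library 3 they had 158 and 138, within or just above the microglia range. Cebpb, a transcription factor of macrophages and of acute inflammation that was chosen after its values were seen, had 578 and 75974 in MDM and 20179, 10507 and 13664 in microglia. It was far below microglia in library 1 and far above in library 3, and the group difference did not pass (limma, adjusted p = 0.71).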
